A study of Mus musculus with 6 samples.

Results

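The cells described here are CD4 T cells of the mouse meninges and of the tissue beside them, the helper arm of the adaptive immune system. They were picked by transcript from all 6 single-cell libraries of the study. A barcode had to carry at least 500 genes, at most 10% of its transcripts on mitochondrial genes, a transcript of at least 2 of the 3 CD3 chain genes (Cd3e, Cd3d and Cd3g) and at least 1 transcript of Cd4. Barcodes with any transcript of Cd8a or Cd8b1 (CD8 T cells), Trdc (gamma-delta T cells), Csf1r (macrophages) or Cd79a (B cells) were left out. This gave 198 cells of the 8804 barcodes that passed the gene and mitochondrial limits. Of these, 91 came from the cortical surface and 107 from the bone-associated tissue.

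CD4 T cells recognize peptides that other cells present on MHC class II, through a T cell receptor that signals via the CD3 chains. Naive cells circulate between blood and lymph nodes under receptors such as Ccr7 and S1pr1, whereas cells that have met antigen can settle in tissue and take on helper programs. These programs are known by their cytokines and transcription factors, among them Th1 (interferon gamma), Th2, Th17 (interleukin 17) and the Foxp3-dependent regulatory T cells. In the meninges, the dura is known as a site where such cells meet antigen that drains from the brain.

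The study used wild-type C57BL6 mice of 8 to 16 weeks without any treatment, and compared 2 dissections. Cortical surface-associated libraries (CSA1 to CSA4) were made from the top of the cortex with its leptomeninges, and bone-associated libraries (BA1 and BA2) from the dura and other connective tissue freed from the skull. Each library pooled 6 to 10 mice, 8 in each bone-associated one, so the library is the replicate and mouse-to-mouse spread is not seen. The mice were not perfused, and so blood-borne and tissue-localized T cells cannot be told apart. Sorting kept viable nucleated cells with no T cell gate. Each transcript was counted once by its unique molecular identifier (UMI).

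Members numbered 10 in CSA1, 4 in CSA2, 25 in CSA3, 52 in CSA4, 36 in BA1 and 71 in BA2. Their median depth was 7331.5, 9592, 6007, 5500, 5945 and 6294 UMIs per cell in that order. Because CSA2 held only 4 of these cells, tests across genes used the other 5 libraries. The summed depth behind them was 77147 UMIs in CSA1, 173353 in CSA3, 365995 in CSA4, 246637 in BA1 and 497490 in BA2.

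Cd3e and Cd4 belong to the rule, so the label was checked against other genes. Trac, the constant region of the T cell receptor alpha chain, was not part of it and was detected in 187 of the 198 cells. Trbc2, a beta chain constant region, was detected in 195. No Cd4 UMI was found in any of the 845 Cd79a-positive B cell barcodes. A Cd4 UMI was found in 20 of 5173 barcodes with neither a CD3 nor a Csf1r UMI. Many members lay at the lower edge of the rule, since 105 had a single Cd4 UMI and 93 had 2 or more. Just outside it lay 258 barcodes that met every other condition with neither Cd4 nor Cd8 UMIs, of which 218 had Trac, and 7 with both Cd4 and Cd8 UMIs. A further 2 were left out by Trdc, 6 by Csf1r and 2 by Cd79a.

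Several libraries stood apart. Transcripts of the Y-linked genes Ddx3y, Eif2s3y, Uty and Kdm5d were found in 341 of 1103 kept barcodes of CSA3 and 723 of 2241 of CSA4, but the other 4 libraries together held 7 such UMIs in 5460 barcodes. The study describes equal numbers of each sex in a library. In the CD4 T cells of CSA3 and CSA4, 21.4% and 13.5% of UMIs were hemoglobin transcripts, against at most 0.00683% in the remaining libraries. The comparison of preparations is therefore also given from the 4 libraries alike in both respects (CSA1, CSA2, BA1 and BA2), and from cells with an Xist UMI and no Y-linked UMI. Over all pairs of libraries 35 barcodes were shared, and 1 of them was a member in 1 library. Leaving aside red blood cell genes and the MHC class II genes, Cd74, Ctss, Fcer1g and Tyrobp, 2 members carried at least 10 marker UMIs of another cell type. A CSA4 barcode had 11048 neutrophil marker UMIs of its 26036, and a BA2 barcode had 363 mesenchymal and mural and 209 myeloid marker UMIs of its 20214.

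CD4 T cells made up a larger share of the kept barcodes in both bone-associated libraries than in any cortical surface library. The share was 1.35% in CSA1 (10 of 743 barcodes, exact binomial 95% interval 0.647 to 2.46%), 0.319% in CSA2 (4 of 1252, 0.0871 to 0.816%), 2.27% in CSA3 (25 of 1103, 1.47 to 3.33%) and 2.32% in CSA4 (52 of 2241, 1.74 to 3.03%). It was 3.74% in BA1 (36 of 963, 2.63 to 5.14%) and 2.84% in BA2 (71 of 2502, 2.22 to 3.57%). These intervals cover counting error only. The means were 1.56% ± 0.942 (SD, n = 4) and 3.29% ± 0.637 (SD, n = 2), and the groups did not overlap. A 2-sided exact permutation test over the libraries gave p = 0.133, which is the smallest value that 4 against 2 libraries allow. With barcodes that have a UMI of the leukocyte gene Ptprc as the denominator, the means were 2.76% ± 1.27 (SD, n = 4) and 6.51% ± 1.04 (SD, n = 2), again without overlap. The share depends on catching a Cd4 UMI. Barcodes that met the other conditions, whatever their Cd4 and Cd8 UMIs, numbered 23 of 743, 17 of 1252, 104 of 1103 and 189 of 2241 in CSA1 to CSA4. They numbered 97 of 963 in BA1 and 201 of 2502 in BA2. By that count CSA3 and CSA4 lay above BA2, so the groups overlapped.

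**Figure D1:**
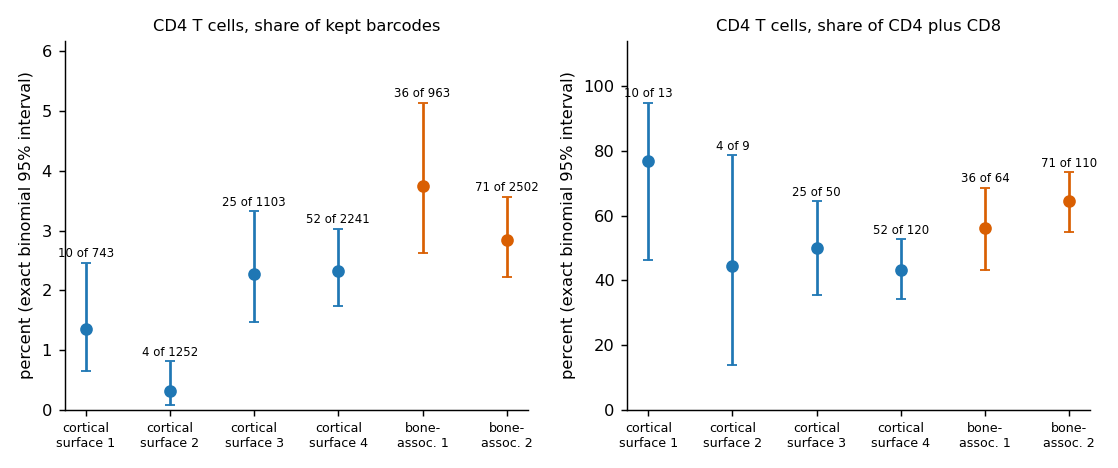
CD4 T cells as a percent of all kept barcodes (left) and of CD4 plus CD8 T cells (right) in each library, with exact binomial 95% intervals and the counts above them (blue, cortical surface; orange, bone-associated). On the left, both bone-associated libraries (3.74% and 2.84%) lie above the 4 cortical surface libraries (0.319 to 2.32%), whereas on the right the groups overlap.

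Among T cells with Cd4 or Cd8 transcripts, the balance did not separate the preparations. CD4 T cells were 10 of 13 in CSA1, 4 of 9 in CSA2, 25 of 50 in CSA3, 52 of 120 in CSA4, 36 of 64 in BA1 and 71 of 110 in BA2. The means were 53.7% ± 15.8 (SD, n = 4) and 60.4% ± 5.87 (SD, n = 2), with p = 0.667 by the 2-sided exact permutation test, and the groups overlapped. The CSA1 value rests on 13 cells. Without that library, the difference between the means of cortical surface and bone-associated libraries was -14.5 percentage points and the groups no longer overlapped (exact permutation p = 0.2, the smallest for 3 against 2).

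The UMIs of these cells were then summed in each library and compared between preparations with edgeR. Genes were called when the p adjusted by Benjamini-Hochberg fell below 0.05 and the log2 fold change reached 1.3 in either direction, and log2 fold changes are cortical surface minus bone-associated, so that negative values are higher in bone-associated cells. Of 5725 genes tested, 293 were called (5.12%), 54 higher in cortical surface (0.943%) and 239 higher in bone-associated CD4 T cells (4.17%). The median of all tested genes was 0.01. A gene was tested when it was found in more than 10% of the members of either group. Some entered through 1 group only, such as Areg, Ramp3, Ikzf2 and Tnfsf11 through bone-associated cells. Rule genes such as Cd4 (-0.05) and Cd3e (-0.01) were left out of these counts, since the choice of cells bears on their levels. In the 4 alike libraries, with 14 cortical surface cells, 26 of 6537 genes were called (0.398%), 3 higher in cortical surface (0.0459%) and 23 in bone-associated (0.352%), and 22 of the 26 were also among the 293. Among cells with Xist and no Y-linked UMI, 154 were called (2.61%), 20 higher in cortical surface (0.339%) and 134 in bone-associated (2.27%), and 145 of them were among the 293. Without CSA3 and CSA4, 86 were called (1.43%), 18 (0.3%) and 68 (1.13%) in the same order, with CSA1 alone as the cortical surface and its spread assumed to be that of the bone-associated libraries. With CSA3 and CSA4 as the cortical surface libraries, 439 were called (7.77%), 93 (1.65%) and 346 (6.12%). Leaving out BA1 gave 125 calls, and leaving out BA2 177.

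**Figure D2:**
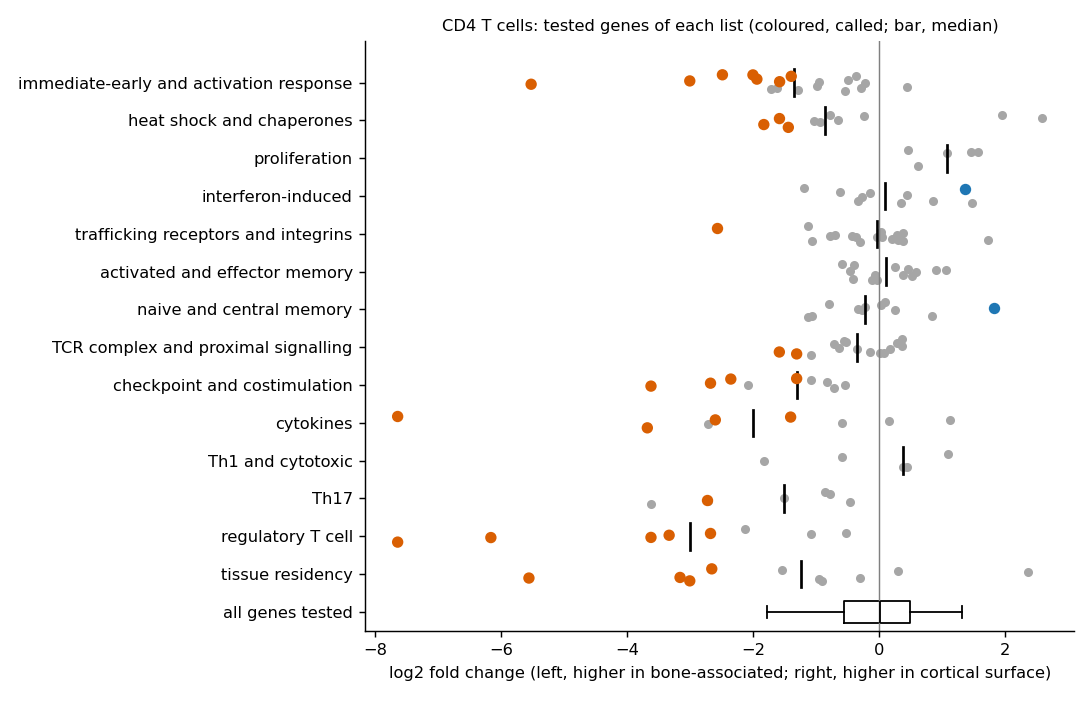
Log2 fold change in CD4 T cells (x axis, left higher in bone-associated, right higher in cortical surface) for each tested gene of 14 gene lists, with called genes coloured (orange or blue) and the list median as a bar. The lowest row is a box plot of all 5725 genes (box, quartiles; whiskers, 5th to 95th percentile; median 0.01). The tissue residency, regulatory T cell, cytokine and activation lists lie to the left, and all their coloured points are orange.

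The lists held up unequally in the 4 alike libraries, where few genes pass. The tissue residency list kept 3 calls, the cytokine list 1 and the Th17 list 1, all higher in bone-associated cells. The heat shock list had 2 calls higher in bone-associated and 1 in cortical surface cells. The regulatory, checkpoint and immediate-early lists had none, with medians of -0.96, -0.99 and -0.29.

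Several genes of tissue-resident lymphocytes were higher in bone-associated CD4 T cells. Of 12 listed genes 10 were tested, 4 were called higher in bone-associated cells and none in cortical surface cells, with a median log2 fold change of -1.25. Ramp3 (ENSMUSG00000041046, chr11:6658521-6677475, mm10), which partners the calcitonin receptor-like receptor, was at a level of 0, 7.02 and 9.49 in CSA1, CSA3 and CSA4, and of 394 and 318 in BA1 and BA2. Levels are UMIs per 1000000 UMIs of the summed cells, adjusted for CD4 T cells by edgeR's TMM library factors (CPM). Levels in B cells, CD8 T cells and barcodes with no CD3 UMI are without TMM factors. It was found in 59 of 107 bone-associated cells and in 5 of 91 cortical surface cells. The groups did not overlap, and the log2 fold change was -5.56 (SE 0.50, edgeR adjusted p = 3.71e-07). From the 4 alike libraries it was -5.69 (edgeR adjusted p = 0.00144).

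Rgs1 (chr1:144242296-144249242), a regulator of G protein signalling that restrains chemokine receptor responses, had a level of 113, 28.1 and 111 CPM in CSA1, CSA3 and CSA4, and of 893 and 650 in BA1 and BA2. Its log2 fold change was -3.16 (SE 0.38, edgeR adjusted p = 9.78e-06), and -3.06 in the 4 alike libraries (edgeR adjusted p = 0.00213). Its relative Rgs2 changed by -2.66 (SE 0.40, edgeR adjusted p = 0.000158). Nr4a1, an orphan nuclear receptor induced by T cell receptor signals, was at 205, 7.02 and 15.8 in the cortical surface libraries and 544 and 378 in the bone-associated ones, with CSA1 between the others (-3.01, SE 0.59, edgeR adjusted p = 0.00214). It did not pass in the 4 alike libraries (-1.02, edgeR adjusted p = 0.421) or with DESeq2 (adjusted p = 0.664). Cxcr6, the receptor for Cxcl16, was the most abundant gene of this list and did not pass the test (-0.31, edgeR adjusted p = 0.701), and neither did Cd69 (-0.96, edgeR adjusted p = 0.115), although its levels did not overlap. Itgae, the CD103 integrin chain, was found in 1 cell each of CSA4, BA1 and BA2.

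**Figure D3:**
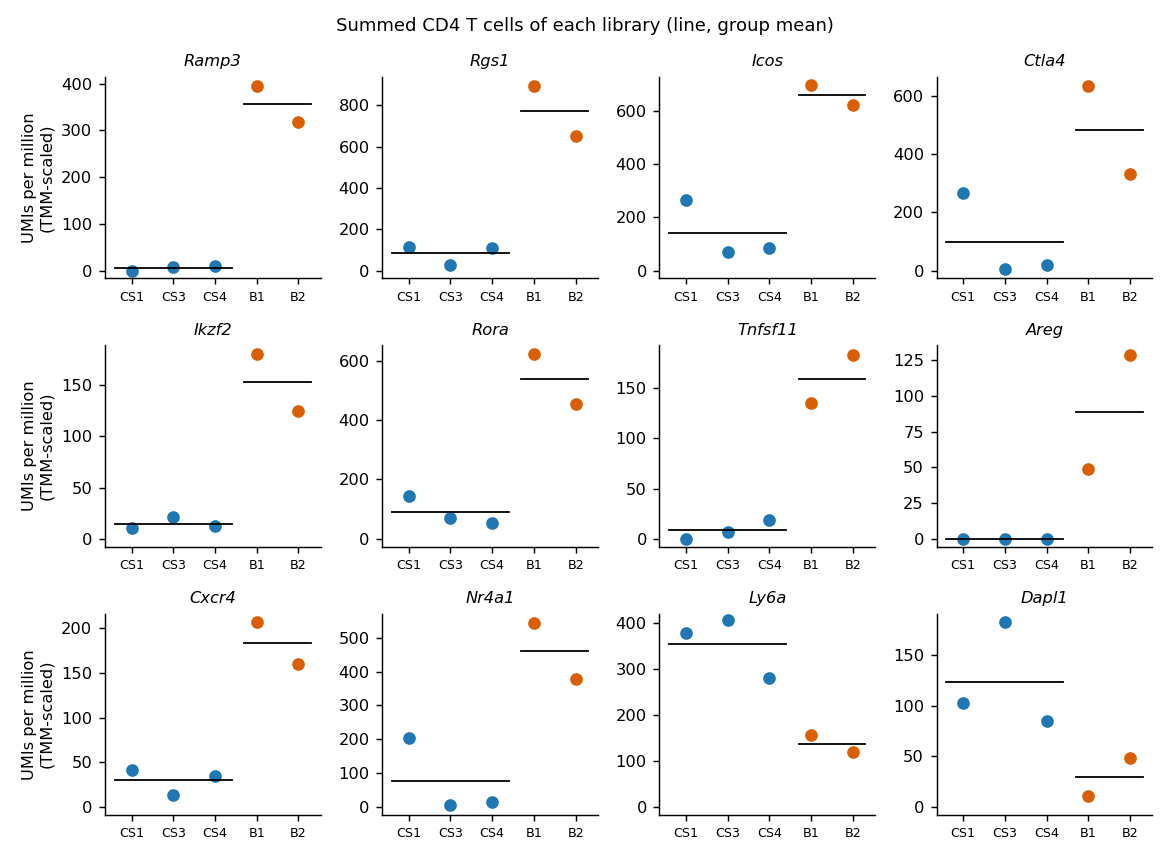
Level of 12 genes in the summed CD4 T cells of each library, in TMM-scaled CPM on a linear axis (CS1, CS3 and CS4, cortical surface, blue; B1 and B2, bone-associated, orange; line, group mean). For the upper 9 panels and Nr4a1 both bone-associated points lie above all cortical surface points. Ly6a and Dapl1 show the opposite order.

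Some costimulatory and inhibitory receptors were also higher in bone-associated cells. Of 12 genes of this list 9 were tested and 4 were called, all higher in bone-associated cells, and the median was -1.31. Icos, a costimulatory receptor of activated helper T cells, had a level of 266, 70.2 and 85.4 CPM in CSA1, CSA3 and CSA4 and of 694 and 622 in BA1 and BA2. It was detected in 82 of 107 bone-associated and 31 of 91 cortical surface cells. CSA1 was the highest of these 3 cortical surface libraries but stayed below both bone-associated ones, and the log2 fold change was -2.36 (SE 0.39, edgeR adjusted p = 0.000355). From the 4 alike libraries it was -1.35 and did not pass (edgeR adjusted p = 0.237).

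Ctla4, which competes with Cd28 for its ligands, differed among the cortical surface libraries themselves. Its level was 266 in CSA1 but 7.02 in CSA3 and 19.0 in CSA4, against 634 and 334 in BA1 and BA2 (log2 fold change -2.68, SE 0.62, edgeR adjusted p = 0.0103). In the 4 alike libraries the value was -0.76 (edgeR adjusted p = 0.573), and among Xist-positive cells -2.45 (edgeR adjusted p = 0.0522). Ctla4 did not pass with DESeq2 either (adjusted p = 0.783). Tnfrsf4, the costimulatory receptor OX40, was at 0, 0 and 38.0 in CSA1, CSA3 and CSA4 and at 120 and 365 in the bone-associated ones (-3.62, SE 0.60, edgeR adjusted p = 0.000364). In CSA2, 1 of the 4 cells held 10 UMIs of it. It did not pass in the 4 alike libraries (-1.80, edgeR adjusted p = 0.421) or with DESeq2 (adjusted p = 0.532). Cd28, the main costimulatory receptor of naive and memory T cells, was more even, with 246, 274 and 272 against 743 and 575 (-1.31, SE 0.29, edgeR adjusted p = 0.00731).

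Most tested genes of the regulatory T cell list were called. Of its 12 genes 8 were tested and 5 were called, all higher in bone-associated cells. They were Areg, Tnfrsf9, Tnfrsf4, Ikzf2 and Ctla4, and the median was -3.01, or -2.71 with genes at 0 set to their bound. Areg, Tnfrsf9 and Ikzf2 passed the detection filter only through bone-associated cells (13, 11 and 20 of 107), so the filter shaped this count and median. With DESeq2 2 of the 8 were called, and among Xist-positive cells 3 of 7. Ctla4 was also found in 23 of the 26 cells with an Il17a UMI in CSA1, BA1 and BA2, and Foxp3 in none of these. Ikzf2, the transcription factor Helios, had 10.2, 21.1 and 12.7 CPM in CSA1, CSA3 and CSA4 and 180 and 125 in BA1 and BA2 (-3.33, SE 0.48, edgeR adjusted p = 8.57e-05). Ikzf2 and Ctla4 ran the same way in CD8 T cells of CSA3, CSA4, BA1 and BA2, as given below. Areg, an epidermal growth factor family ligand linked to tissue repair, had no UMI in any of the 4 cortical surface libraries. It was found in 6 of 36 cells of BA1 and 7 of 71 of BA2. Against a floor of 3 counts over the cortical surface group it was at least 18.8-fold higher in bone-associated cells. None of the 845 B cell barcodes had an Areg UMI, and barcodes with no CD3 UMI had 38.7 and 58.2 CPM in BA1 and BA2, against 52.7 and 133 in the CD4 T cells on the same scale without TMM factors.

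Foxp3, the transcription factor that defines regulatory T cells, was rare and was not tested for its level. A Foxp3 UMI was found in 0 of 10, 1 of 4, 0 of 25 and 0 of 52 cells of CSA1 to CSA4, 1 of 36 of BA1 and 3 of 71 of BA2. A count of 0 allows a share of cells with a Foxp3 UMI of up to 30% in CSA1, 12% in CSA3 and 5.77% in CSA4 by counting error alone, and does not limit the share of cells that express it. Over the 5 libraries with at least 10 members, the 2-sided exact permutation p for the share was 0.2, the smallest for 3 against 2. No B cell and no CD8 T cell had a Foxp3 UMI. Gpr83 and Il10 were at 0 in all 198 cells.

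Il17a, the cytokine of Th17 cells, was restricted to few cells and high in them. It was found in 3 of 10 cells of CSA1, 0 of 4 of CSA2, 0 of 25 of CSA3, 1 of 52 of CSA4, 13 of 36 of BA1 and 10 of 71 of BA2. These 27 cells held 2135 Il17a UMIs, with a median of 24 and a highest value of 366 in a single cell. In BA2, 3 cells gave 74.7% of the UMIs. In CSA1, CSA3 and CSA4 the level was 1373, 0 and 3.16 CPM, and in BA1 and BA2 it was 3562 and 2050. The 2 bone-associated libraries were therefore above all others, but the spread within the cortical surface group was so wide that the log2 fold change of -2.71 did not pass (edgeR adjusted p = 0.112). With CSA1 left out the cortical surface group has 1 UMI, and Il17a is called (log2 fold change -10.1, edgeR adjusted p = 5.78e-105). That fit sets CSA3 and CSA4, near 0 and apart in Y-linked and hemoglobin transcripts, against BA1 and BA2. In BA1, too, 3 cells gave 51.6% of the UMIs. The size of this p is therefore not a measure of the spread between runs.

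Thinning each cell to 1500 UMIs left Il17a in 3 of 10 cells of CSA1, 11 of 36 of BA1, 7 of 71 of BA2 and none of the other libraries. It was found in 0 of 845 B cell barcodes and 3 of 168 CD8 T cells. Il17f, its close relative, was found in 1 cell of CSA1, 5 of BA1 and 6 of BA2.

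**Figure D4:**
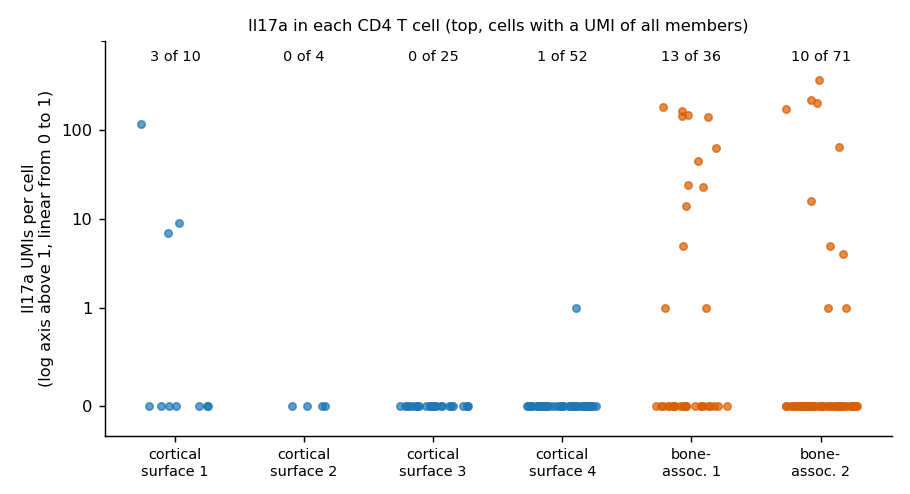
Il17a UMIs in each of the 198 CD4 T cells by library (log axis above 1, linear from 0 to 1, points spread sideways at random), with the number of cells that have a UMI above each column. Cells above 10 UMIs occur in CSA1, BA1 and BA2, up to 366, and the highest value in CSA2, CSA3 and CSA4 is 1.

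The Il17a-positive cells differed from their neighbours in other genes. This is a description within the 3 libraries that hold 26 of them, beside the 91 other members there. Il17f was found in 10 of 26 against 2 of 91. Cxcr6 was found in 23 of 26 against 30 of 91, Tmem176a in 21 against 15, S100a4 in 25 against 46, and Maf in 24 against 55. Several genes of circulating cells were the reverse. S1pr1 was found in 2 of 26 against 62 of 91, Ccr7 in 1 against 38 and Lef1 in 2 against 47. Il7r, the interleukin 7 receptor, was found in 21 of 26 against 65 of 91. All 26 had Trac, none had Zbtb16, the factor of innate-like NKT cells, and 4 had Tcrg-C1, a gamma chain constant region. Foxp3 and Tbx21, the Th1 factor, were found in none of the 26. Of the regulatory T cell list, Ctla4 was found in 23 of 26 against 29 of 91, and Areg in 5 against 8. Members with no Il17a UMI were also looked at alone, although such a member can be the same kind of cell with no UMI caught. Among them Ramp3 was found in 11 of 23 cells of BA1 and 30 of 61 of BA2, and in 0 of 7, 1 of 4, 1 of 25 and 3 of 51 cells of CSA1 to CSA4. Rgs1, Icos and Ctla4 were more often found in the Il17a-positive cells, and their levels were lower without those cells (CPM without TMM factors). In BA1 and BA2, Rgs1 went from 965 and 669 to 315 and 450, and Icos from 750 and 641 to 416 and 468. Ctla4 there went from 685 and 344 to 309 and 211. In CSA1 Icos went from 337 to 140 and Ctla4 from 337 to 17.5. Cxcr6 was then found in 5 of 7, 2 of 4, 12 of 25 and 21 of 51 cells of CSA1 to CSA4. In BA1 and BA2 it was found in 7 of 23 and 18 of 61.

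The promoters of both genes are shown because their transcripts mark these cells. The sequences are the 250 bases before the RefSeq gene start on GRCm38.p6, 5′ to 3′ on the strand of the gene, with AGGTCA or its reverse complement TGACCT in capitals, the core letters bound by nuclear receptors such as the one encoded by Rora. Il17a lies on the plus strand at chr1:20730655-20730904 and Il17f on the minus strand at chr1:20784271-20784520.
Il17a: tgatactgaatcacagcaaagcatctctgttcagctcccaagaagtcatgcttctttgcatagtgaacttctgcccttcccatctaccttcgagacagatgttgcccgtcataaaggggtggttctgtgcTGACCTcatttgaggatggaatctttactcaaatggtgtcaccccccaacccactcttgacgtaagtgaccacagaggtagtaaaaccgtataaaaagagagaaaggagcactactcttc
Il17f: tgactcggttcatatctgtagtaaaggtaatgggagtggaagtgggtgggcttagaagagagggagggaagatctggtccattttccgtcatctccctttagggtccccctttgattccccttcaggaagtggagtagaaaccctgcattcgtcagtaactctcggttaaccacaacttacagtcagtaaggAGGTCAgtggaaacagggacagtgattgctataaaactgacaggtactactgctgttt
These letters occur on either strand in 14.0% of all 32851 RefSeq windows of the same length, and in 12.7% of the 245 windows of called genes that were higher in bone-associated cells, so a match is common. Rora itself, an orphan receptor of this family, had 143, 70.2 and 53.8 CPM in CSA1, CSA3 and CSA4 and 623 and 453 in BA1 and BA2. Its log2 fold change was -2.73 (SE 0.36, edgeR adjusted p = 4.27e-05), and -2.12 in the 4 alike libraries (edgeR adjusted p = 0.0386). It was the 1 called gene of the Th17 list, of which 7 of 9 were tested, with a median of -1.51. This count rests on the 10 cells of CSA1, since with CSA3 and CSA4 as the cortical surface libraries 6 of the 7 were called, all higher in bone-associated cells, with a median of -3.15.

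Several cytokine genes were higher in bone-associated cells. Of 19 cytokine genes 8 were tested and 4 were called, all higher in bone-associated cells, with a median of -2.004. Tnfsf11, the osteoclast-inducing ligand RANKL, was at 0, 7.02 and 19.0 CPM in CSA1, CSA3 and CSA4 and at 135 and 183 in BA1 and BA2. It was found in 28 of 107 bone-associated and 5 of 91 cortical surface cells, and no B cell barcode had it. The log2 fold change was -3.68 (SE 0.51, edgeR adjusted p = 7.4e-05), and it also passed in the 4 alike libraries, where no cortical surface cell had it (edgeR adjusted p = 0.00731). Tnfsf8, the CD30 ligand, changed by -2.60 (SE 0.41, edgeR adjusted p = 0.000245). Tgfb1, which encodes the transforming growth factor beta 1 ligand, changed by -1.41 (SE 0.35, edgeR adjusted p = 0.016). Areg was the fourth, and like Tnfsf11 it passed the detection filter only through bone-associated cells. Tgfb1 did not pass with DESeq2 (adjusted p = 0.12), and with CSA3 and CSA4 as the cortical surface libraries it was under the fold limit (-1.27). In the 4 alike libraries neither Tnfsf8 nor Tgfb1 passed (edgeR adjusted p = 0.0622 and 0.0892). Ltb, the lymphotoxin beta gene, was higher in cortical surface cells without reaching the fold limit (1.13, edgeR adjusted p = 0.0292), with levels of 574, 702 and 715 against 255 and 351.

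Th2 and Th1 genes were sparse. Of 9 Th2 genes 2 were tested and 1 was called, Ccr4, a chemokine receptor of Th2 and regulatory cells. It had no UMI in CSA1, CSA3 or CSA4 and was found in 12 of 36 and 9 of 71 bone-associated cells, at least 7.85-fold higher against the floor of 3 counts. Ccr4 was thus tested only through bone-associated cells. It was also found in 1 of the 4 cells of CSA2, and the 4 alike libraries gave -2.73 (edgeR adjusted p = 0.454). Gata3 did not pass (-0.62, edgeR adjusted p = 0.404), and Il5 and Il13 were at 0 in all 198 cells. Of 13 Th1 and cytotoxic genes 5 were tested and none was called, with a median of 0.38. Ccl5, a chemokine of effector and memory cells, was their most abundant gene, at 225, 1425 and 1626 CPM in CSA1, CSA3 and CSA4 and 830 and 808 in BA1 and BA2, so that the cortical surface libraries lay on both sides. Of the NKT and innate-like list only Xcl1 was tested, and it was not called (1.47). Ifng was found in 2, 2, 8 and 6 cells of CSA1 to CSA4 and in 1 and 10 of BA1 and BA2.

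Immediate-early genes switch on within minutes of a stimulus and also of tissue dissociation, and some of them were higher in bone-associated cells. Of 19 genes 18 were tested, 7 were called higher in bone-associated cells and none lower, and the median was -1.35. The called genes were Nr4a3, Nr4a1, Dusp1, Tnfaip3, Fos, Nfkbia and Jund. Nr4a3 was at 51.2, 7.02 and 3.16 CPM in CSA1, CSA3 and CSA4 and at 1028 and 275 in BA1 and BA2 (-5.53, SE 0.62, edgeR adjusted p = 5.93e-06). Dusp1, a phosphatase that shuts off MAP kinases, was at 61.5, 28.1 and 31.6 against 173 and 244 (-2.49, SE 0.41, edgeR adjusted p = 0.000355). Fos and Nfkbia overlapped between the groups, Fos with 184, 14.0 and 31.6 against 150 and 322.

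These genes also varied between libraries in other cells, and not all in the same way. In B cell barcodes, Nr4a1 was at 281, 414, 13.0 and 26.02 CPM (without TMM scaling) in CSA1 to CSA4 and at 457 and 646 in BA1 and BA2. Jund in B cells was at 2126, 2315, 702 and 678 and at 1954 and 2825. Both genes were lower in CSA3 and CSA4 than in BA1 and BA2 in B cells, CD4 and CD8 T cells, whereas in B cells CSA1 and CSA2 were closer to the bone-associated libraries. Dusp1 in B cells was higher in CSA1 and CSA2 (574 and 1192) than in BA1 and BA2 (157 and 150.1), and so was Fos. Nr4a3 in B cells went with the preparation, at 0, 0, 0 and 0.723 in CSA1 to CSA4 and at 59.8 and 40.2 in BA1 and BA2. In the 4 alike libraries, none of the 18 genes tested was called and the list's median was -0.29. Library and tissue cannot be told apart for these genes. Icos was at 0 in B cells of every cortical surface library and at most 2.82 in the bone-associated ones. It was found in 3 of 845 B cell barcodes, too few to show whether it varied between libraries. The summed level of the list was 6115, 2808 and 2451 CPM in CSA1, CSA3 and CSA4 and 8584 and 8525 in BA1 and BA2.

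**Figure D5:**
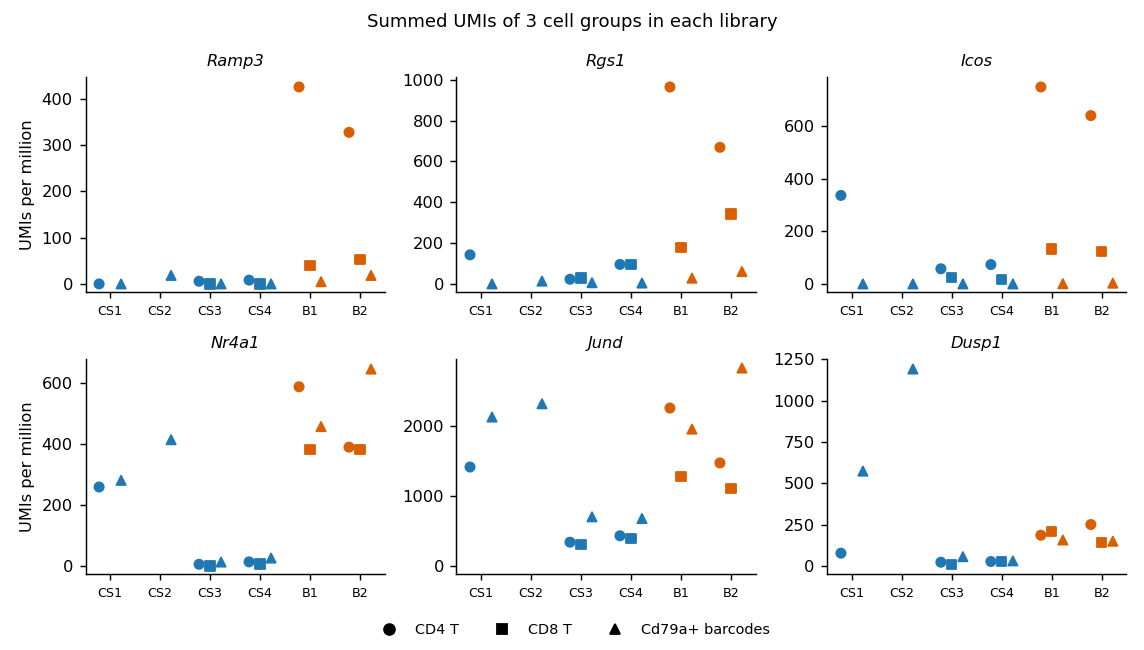
CPM, without TMM scaling, of 6 genes in the summed CD4 T cells (circles), CD8 T cells (squares) and Cd79a-positive B cell barcodes (triangles) of each library (CS1 to CS4, cortical surface, blue; B1 and B2, bone-associated, orange; sums of under 10 T cells left out). Ramp3, Rgs1 and Icos stand highest in bone-associated CD4 T cells, whereas Nr4a1 and Jund are low in CS3 and CS4 in all 3 cell groups.

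The promoters of Areg and Dusp1 both hold TGACGTCA, the letters of a full cAMP response element, and are shown because both genes were called higher in bone-associated cells. They were picked from the called genes after the values were seen. The windows are again the 250 bases before the RefSeq start on GRCm38.p6, with the 8 letters in capitals, which read the same on both strands. Areg lies on the plus strand at chr5:91139349-91139598 and Dusp1 on the minus strand at chr17:26508473-26508722.
Areg: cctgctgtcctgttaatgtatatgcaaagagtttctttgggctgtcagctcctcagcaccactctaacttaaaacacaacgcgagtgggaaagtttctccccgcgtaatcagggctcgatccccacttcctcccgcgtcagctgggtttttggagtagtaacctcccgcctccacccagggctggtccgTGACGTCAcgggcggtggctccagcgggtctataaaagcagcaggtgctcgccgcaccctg
Dusp1: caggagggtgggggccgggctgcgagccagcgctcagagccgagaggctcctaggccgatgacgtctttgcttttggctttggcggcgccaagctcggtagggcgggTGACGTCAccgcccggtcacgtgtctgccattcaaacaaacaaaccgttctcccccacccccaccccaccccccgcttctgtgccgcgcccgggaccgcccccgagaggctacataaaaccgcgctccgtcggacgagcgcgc
The letters were found in 1.55% of all windows and in 4.49% of those of called genes higher in bone-associated cells, which is 11 of 245 windows. No test was made of that difference, and a match is not evidence that a factor binds.

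Some chaperones were higher in bone-associated cells as well. Of 12 genes 10 were tested and 3 were called, Hsp90aa1, Dnaja1 and Hsph1, all higher in bone-associated cells, and the median was -0.85. Hsp90aa1, an inducible cytosolic chaperone, was at 215, 309 and 250 CPM in CSA1, CSA3 and CSA4 and at 627 and 923 in BA1 and BA2 (-1.58, SE 0.30, edgeR adjusted p = 0.00178). Dnaja1, a cochaperone of the Hsp70 family, changed by -1.44 (edgeR adjusted p = 0.0055) and by -2.34 in the 4 alike libraries (edgeR adjusted p = 0.00815). In CD8 T cells Dnaja1 was at 335 and 280 in CSA3 and CSA4 and at 1234 and 944 in BA1 and BA2. Hsp90aa1 and Hsph1 did not pass in the 4 alike libraries (edgeR adjusted p = 0.0703 and 0.207). Hsp90ab1 passed there (-1.69, edgeR adjusted p = 0.0241) but not in the main test (-0.93, edgeR adjusted p = 0.0998). With DESeq2 Hsph1 did not pass (adjusted p = 0.157). Hspa1a ran the other way without passing the test (1.95, edgeR adjusted p = 0.221), with 656 in CSA1 and 7.02 to 85.8 elsewhere.

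All 15 genes of the T cell receptor and proximal signalling list were tested, and 2 were called, both higher in bone-associated cells, with a median of -0.35. They were Cd28 and Ptpn22, a phosphatase that dampens receptor signals, at 154, 133 and 174 CPM in CSA1, CSA3 and CSA4 against 529 and 410 in BA1 and BA2 (-1.59, SE 0.30, edgeR adjusted p = 0.00154). Neither was called in the 4 alike libraries (edgeR adjusted p = 0.307 for Cd28 and 0.206 for Ptpn22). Trac (-0.53, edgeR adjusted p = 0.438), Trbc2 (0.16, edgeR adjusted p = 0.857) and Ptprc (0.08, edgeR adjusted p = 0.92) did not pass.

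Homing receptors gave 1 call, a share near the 5.12% of all genes. Of 17 tested genes of the trafficking list, Cxcr4 was called higher in bone-associated cells and none in cortical surface cells, and the median was -0.03. Cxcr4, the receptor for the chemokine Cxcl12, was at 41.0, 14.0 and 34.8 CPM in CSA1, CSA3 and CSA4 and 206 and 160 in BA1 and BA2 (-2.57, SE 0.43, edgeR adjusted p = 0.000368). The 4 alike libraries gave -1.82 (edgeR adjusted p = 0.264). Cxcr4 was higher in bone-associated libraries in other cells as well (CPM without TMM factors). B cells had 140, 120, 86.1 and 106 in CSA1 to CSA4 and 188 and 325 in BA1 and BA2. CD8 T cells had 33.5 and 37.6 in CSA3 and CSA4 and 88.7 and 193 in BA1 and BA2. Barcodes with no CD3 UMI had 17.8, 23.1, 32.7 and 29.2 in CSA1 to CSA4 and 123 and 135 in BA1 and BA2.

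The naive and memory lists gave 1 call between them, a share near the 5.12% of all genes. All 11 genes of the naive and central memory list were tested, and Dapl1 was called higher in cortical surface cells, with a median of -0.22. Dapl1, a gene of quiescent naive and memory T cells, was at 102, 183 and 85.4 CPM in CSA1, CSA3 and CSA4 and at 11.3 and 48.8 in BA1 and BA2, without overlap (1.82, SE 0.48, edgeR adjusted p = 0.0238). It was found in 15 of 91 cortical surface and 9 of 107 bone-associated cells, and its level in CSA1 comes from 1 cell. It did not pass with DESeq2 (adjusted p = 0.115), among Xist-positive cells (edgeR adjusted p = 0.156) or in the 4 alike libraries (edgeR adjusted p = 0.138). Lef1, a transcription factor of naive T cells, was found in 3, 2, 15 and 30 cells of CSA1 to CSA4 and in 10 and 36 of BA1 and BA2, and did not pass (0.25, edgeR adjusted p = 0.73). Ccr7 and S1pr1 were on the bone-associated side without passing (-1.12 and -1.06, edgeR adjusted p = 0.144 and 0.127). None of the 14 activated and effector memory genes was called, and their median was 0.11. Crip1 was their most abundant gene, at 1198, 1334 and 1218 CPM against 1937 and 1399.

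The interferon-induced and proliferation lists gave 1 call between them, a share near the 5.12% of all genes. Ly6a, the interferon-inducible surface protein Sca-1, was at 379, 407 and 281 CPM in CSA1, CSA3 and CSA4 and at 158 and 119 in BA1 and BA2, without overlap. It was called higher in cortical surface cells (1.36, SE 0.32, edgeR adjusted p = 0.0118), but not among Xist-positive cells (1.07, edgeR adjusted p = 0.181), in the 4 alike libraries (1.35, edgeR adjusted p = 0.264) or with DESeq2 (adjusted p = 0.0615). It was the only call among the 10 tested interferon-induced genes, whose median was 0.10. None of the 5 tested proliferation genes was called, with a median of 1.08. Mki67, a marker of cycling cells, was at 246 CPM in CSA1, all from 1 cell. It was found in 0 of 4, 1 of 25 and 7 of 52 cells of CSA2 to CSA4, and in 3 of 107 bone-associated cells. Of 5 tested follicular helper genes none was called. Maf was under the fold limit (-1.16, edgeR adjusted p = 0.0269).

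Outside the lists, genes were named by a rule, the 8 largest fold changes in each direction among called genes without overlap that had 20 or more UMIs where they were higher. Libraries did not overlap for 1929 of the 5725 genes (33.7%), so that condition alone is common. Higher in bone-associated cells, all with no UMI in CSA1, CSA3 and CSA4, were Areg, Rgs16, Myb, Ccr4, Bpnt1, Mgp, Tnfrsf9 and Klhl21. All 8 therefore passed the detection filter only through bone-associated cells. Rgs16, another regulator of G protein signalling, was found in 6 of 36 cells of BA1 and 9 of 71 of BA2, at least 14.0-fold higher. Myb, a transcription factor of progenitors and activated lymphocytes, was found in 5 and 8 cells, at least 9.04-fold higher. Tnfrsf9, the costimulatory receptor 4-1BB, was found in 1 of the 4 cells of CSA2 and so was not absent from the cortical surface, and Mgp, a matrix protein, was found in 2 of them. Mgp was at 11.3 and 54.6 CPM in CD4 T cells of BA1 and BA2 but at 2470.3 and 6589 in barcodes with no CD3 UMI. Rgs16 in those barcodes (57.4 and 97.6) was near its level in CD4 T cells (63.8 and 81.9 with TMM factors). Higher in cortical surface cells were Sh2d3c, Hist1h4d, Hist1h1e, Fam46a, Xpc, Prc1, Ifi206 and 1810030O07Rik. Ifi206, an interferon-inducible gene, was at 102, 168 and 85.4 CPM in CSA1, CSA3 and CSA4 against 22.5 and 23.4 (2.301, SE 0.45, edgeR adjusted p = 0.00223). Hist1h4d, a histone H4 gene, was at 51.2, 63.2 and 79.1 against 7.51 and 7.80 (3.06, SE 0.59, edgeR adjusted p = 0.00195). Among the 4 alike libraries 7 of these 8 genes were tested and none was called, nor was any of the 8 that were higher in bone-associated cells.

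Transcripts known from other cell types were also among the calls. All 5 tested red blood cell genes were called higher in cortical surface cells, Hba-a1, Hba-a2, Hbb-bs, Hbb-bt and Bpgm. Their list summed to 10.2, 261306 and 156299 CPM in CSA1, CSA3 and CSA4 and to 60.1 and 89.7 in BA1 and BA2, and Hbb-bs was found in all 77 cells of CSA3 and CSA4. B cells of these libraries held it too, at 157962 and 94721 CPM. Both tested neutrophil genes, S100a8 and S100a9, were called higher in cortical surface cells. They rest on the 1 CSA4 barcode with neutrophil markers, and without the 2 mixed barcodes the values were -1.37 and -1.33.

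The mesenchymal and mural list gave 3 calls of 3 tested. Acta2 and Igfbp7 were higher in bone-associated cells and Ptgds in cortical surface cells. Without the mixed barcodes, Acta2 changed by -3.07 (edgeR adjusted p = 0.0579), Igfbp7 by -0.54 (edgeR adjusted p = 0.799) and Apoe, a myeloid list gene, turned from -2.76 to 0.89. Ptgds was found in 8, 3, 1 and 6 cells of CSA1 to CSA4 and in no bone-associated cell. In barcodes with no CD3 UMI it was at 1086 to 9911 CPM in the cortical surface libraries, against 153 and 69.7 in BA1 and BA2. Ttr, the choroid plexus transcript, was at 30.7, 7.02 and 28.5 in CD4 T cells of CSA1, CSA3 and CSA4 and 135 and 64.4 in BA1 and BA2, and at 133 and 74.7 in B cells of BA1 and BA2. Apoe was the 1 called gene of 3 tested on the macrophage, monocyte and dendritic list. Clic6, Folr1 and Otx2 of the choroid plexus list were at 0 in all members. The B cell list summed to 51.2 to 107 CPM, with Ighd, Ms4a1 and Pax5 at 0, and the 1 tested gene of each of the B cell, microglia and endothelial lists was not called. The share of free RNA in the other calls was not tested. Ddx3y was called higher in cortical surface cells, with UMIs in CSA3 and CSA4 alone.

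CD8 T cells of the same libraries gave a comparison at hand. With libraries as a block and CSA3, CSA4, BA1 and BA2, which have at least 10 cells of each kind, 5 of 6598 genes differed between CD4 and CD8 T cells in their preparation difference (0.0758%). On the scale of this fit, with TMM factors over both cell types, Tnfsf8 had 18.9 and 32.6 CPM in CD4 T cells of CSA3 and CSA4 and 154 and 210 in those of BA1 and BA2, whereas CD8 T cells had 22.2, 27.2, 7.20 and 8.87 in the same order. The interaction was -4.31 (SE 0.77, edgeR adjusted p = 0.00411). The other 4 were S100a8, S100a9, Anxa1 and Serpinb1a, genes of neutrophils and other myeloid cells. Without the mixed barcodes the count was 7, and Tnfsf8 was the only gene of the 5 among them. Rgs1, S100a4 and Cxcr6 were among the others.

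Ramp3 and Icos levels in CD8 T cells were lower and ran the same way in the libraries with at least 10 CD8 T cells. Ramp3 was at 0 in CD8 T cells of CSA3 and CSA4 and at 40.3 and 53.0 CPM (without TMM scaling) in those of BA1 and BA2. Icos was at 24.0 and 18.0 and at 133 and 125. In CSA1 and CSA2, with 3 and 5 CD8 T cells, Icos was at 42.7 and 167. Nr4a3 was at 0 and 6.54 in CD8 T cells of CSA3 and CSA4 and at 641 and 206 in BA1 and BA2. Vps37b, named after its values were seen, was at 62.3 and 55.6 in CD8 T cells of CSA3 and CSA4 and at 1137 and 1266 in BA1 and BA2, and at 69.2, 90.2, 1172 and 1212 in CD4 T cells on the same scale.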

How the data were processed

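The authors deposited, for each of the 6 libraries, whole-number UMI counts per gene and barcode aligned to mm10. Cell Ranger 3 is named in the submitters' notes and cellranger 6.1.2 in the file headers. Dissociation is given as collagenase D and dispase II in the study's methods and as papain in the labels. The counts were used as deposited, without correction for free RNA. Gene coordinates come from GENCODE M21 on GRCm38 by Ensembl identifier (31011 of 31053 genes).

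The members, the 26 gene lists and the tests were chosen with earlier results of these data known. Some genes of the lists are not reported here and stay out of the list counts, but not out of the counts over all genes. Libraries with at least 10 members entered the test (edgeR's quasi-likelihood test, TMM), on genes found in more than 10% of either group's members. The rule genes were fitted but not counted. Named genes are the rule genes, the 8 leading calls in each direction, all called list genes, the 3 most abundant genes of each list, Foxp3 and the called interaction genes. Doublets were scored against 2 simulated doublets per barcode but not removed, and 1 member scored as one. On simulated data the test recovered 40 of 67 genes changed 4-fold, 60 of 67 changed 8-fold and 66 of 66 changed 16-fold, with 5 false calls among 5729 genes. Alternatives were DESeq2, other normalizations, gene and cell filters, thinning, a replicate block and left-out libraries. Those added after seeing the data were the 4 alike libraries, Xist-positive cells, mixed barcodes left out, the block over all 6 libraries and the Ptprc denominator. Replicate libraries are described as independent runs with their own pooled mice, and p-values measure the spread between these runs. Versions were Python 3.11.15, scipy 1.17.1, scikit-learn 1.9.0, R 4.3.3, edgeR 4.0.16 and DESeq2 1.42.0.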

Additional observations from a re-analysis of the deposited data

Results flagged for a closer look

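Among 13 measures over the 4 cortical surface libraries, 2 had a library far from the others, and chance gives about 1 in 20 such groups. The share of CD4 T cells with an Il17a UMI was 30.0% in CSA1 (3 of 10 cells), against 0, 0 and 1.92% in CSA2, CSA3 and CSA4. The share with a Foxp3 UMI was 25% in CSA2 (1 of 4 cells), against 0 in the others. Both rest on very few cells, and where the other shares are at or near 0 a single cell can set a library apart.

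The difference between preparations differed between CD4 and CD8 T cells for 5 genes by the interaction test with libraries as a block. On the log2 scale the interaction was 12.01 for S100a8, 8.85 for S100a9, 4.21 for Anxa1, 6.83 for Serpinb1a and -4.31 for Tnfsf8. On the scale of this fit, with TMM factors over both cell types, S100a8 had 12502 CPM in CD4 T cells of CSA4 and 0 in CSA3. Without the mixed barcodes, S100a8, S100a9, Anxa1 and Serpinb1a were not called.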

How the results depend on the processing

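The count of 293 called genes was 107 with DESeq2, 125 with cells thinned to 1500 UMIs, 86 without CSA3 and CSA4, 26 in the 4 alike libraries and 154 in Xist-positive cells. Leaving out each library gave 125 to 439. Of 60 called genes named or listed here, 60 were still called with edgeR's RLE scaling but 29 with DESeq2, 29 of 57 without BA1 and 9 of 55 in the 4 alike libraries. The interaction count was 1 after thinning (Rgs1), 8 with detection in over 25% of cells, and 0 (without CSA4) to 20 with a library left out. With a library left out, differences ran from -2.18 to -1.27 percentage points of kept barcodes, -14.5 to -2.57 of CD4 plus CD8 T cells and -4.23 to -2.78 for Foxp3, whose difference was 0 after thinning.

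The replicate block could be fitted only over all 6 libraries and gave 55 calls. Preparations share the numbers 1 and 2, which pair nothing by label, and same-numbered deviations correlated at 0.14 and 0.06. Under the block these log2 fold changes reversed: Tnfrsf9 0.93, Hbb-bt -1.81, Hba-a2 -4.72, Hba-a1 -4.39, Hbb-bs -5.62, Bpgm -1.27, S100a9 -5.38, S100a8 -5.53 and Nfkbia 0.078. Without CSA3 and CSA4, Hbb-bs (-6.25), Bpgm (-0.86), S100a9 (-5.48) and S100a8 (-5.81) reversed. In the 4 alike libraries Tnfrsf9 (0.30), Hbb-bs (-5.93), Bpgm (-1.45), S100a9 (-5.17), S100a8 (-5.49) and Nr4a2 (0.061) did. With at least 2 Cd4 UMIs Bpgm (-0.49), S100a9 (-0.70) and Anxa1 (-0.36) did. Without mixed barcodes S100a9 (-1.33), S100a8 (-1.37) and Apoe (0.89) did, and Apoe also without doublet-like barcodes (0.85). With a library left out S100a9 ranged from -5.29 to 8.52, S100a8 from -5.62 to 8.15 (both lowest without CSA4) and Apoe from -3.70 to 1.15. The interaction ranged from -0.42 to 12.43 for S100a8 and from -1.08 to 8.88 for S100a9, again lowest without CSA4, and was -0.82 for S100a9 without mixed barcodes. The causes were not tested.

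The number of cells limits these comparisons: CSA1 holds 10 members, CSA2 4.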

Other observations

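The 4 cells of CSA2 entered the tests across genes only in the 4 alike libraries and in the alternatives over all 6 libraries. Their summed levels, in CPM without TMM scaling, were 455 for Ctla4, 379 for Icos, 708 for Nr4a2, 1037 for Gadd45b and 531 for Nfkbid. Ctla4 and Icos were found in 4 of 4 cells. The same quantities in CSA1 were 337, 337, 13.0, 117 and 25.9, in BA1 they were 685, 750, 247, 568 and 219, and in BA2 344, 641, 213, 752 and 159. For Ctla4 CSA2 thus lay between BA1 and BA2. Ramp3 had 1 UMI in CSA2 and Tnfsf11 none. These genes were chosen after their values were seen.

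Txnip, which binds and inhibits thioredoxin, was also outside the lists and chosen after its values were seen. It was at 287, 498 and 386 CPM in CSA1, CSA3 and CSA4 and at 78.8 and 142 in BA1 and BA2 (1.79, SE 0.34, edgeR adjusted p = 0.00178), and at 0.64 in the 4 alike libraries (edgeR adjusted p = 0.728). In B cell barcodes Txnip, without TMM factors, was at 275, 511, 271 and 226 in CSA1 to CSA4 and at 320 and 583 in BA1 and BA2.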
